A study of Mus musculus with 4 samples.

Results

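The genes described are 10 antioxidant enzymes, listed by symbol: the superoxide dismutases Sod1 and Sod2, catalase (Cat), the glutathione peroxidase Gpx1, the peroxiredoxins Prdx1 and Prdx4, the thioredoxin reductase Txnrd1, the glutamate-cysteine ligase subunits Gclm and Gclc, and the heme oxygenase Hmox1. They were 10 of the genes on an Affymetrix array that named 22180 genes by a probe set of 1 gene, and each was read from its probe set of highest mean. Of the 10, 9 had such a probe set and all 9 passed the floor described below. Prdx1 was listed only in 3 probe sets that name other genes as well, so no value is given for it. The arrays held RNA of LSK cells, a sorted fraction of mouse bone marrow without lineage markers and with the surface markers Sca-1 and c-Kit, in which blood stem cells and early progenitors lie. The 4 groups, with 1 array each, were AMKO mice at day 8 after 5-fluorouracil (5FU), AMKO mice at basal (day 0), Ctrl mice at day 8 after 5FU and Ctrl mice at basal. All were C57/B6 males aged 4 months, and the treated mice had received 150 mg/kg of 5FU, a drug that blocks DNA synthesis and so depletes cycling marrow cells. AMKO is the genotype name of the labels, whose targeted gene is not stated there, so the deletion was not checked on the arrays. The number of mice behind an array is not stated in the labels.

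Antioxidant enzymes act in sequence. Superoxide dismutases turn superoxide into hydrogen peroxide, which is then removed. Catalase splits it into water and oxygen, while glutathione peroxidases and peroxiredoxins reduce it with electrons from glutathione or thioredoxin and in the end from NADPH. The transcription factor NRF2, held in check by KEAP1, drives many of these genes, and FOXO factors drive others. In mouse bone marrow, resting stem cells are known for low levels of reactive oxygen, and loss of FOXO factors or of ATM raises these levels and exhausts the stem cells.

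With 1 array per group there is no replicate error, and the number of arrays limits the precision of every value. All levels are log2 signals as deposited, and a difference of 1 is a 2-fold difference. Array medians were 5.44 for AMKO 5FU, 5.55 for AMKO Basal, 5.43 for Ctrl 5FU and 5.47 for Ctrl Basal. Genes whose signal on at least 1 array reached the median of all values (5.475, called the floor) were retained, 14061 in all. The sort marker Kit read 11.16 and 11.87 on AMKO 5FU and Basal and 11.08 and 11.84 on Ctrl 5FU and Basal, and all 10 LSK markers measured lay above the floor on every array. The sort marker Ly6a had no probe set of 1 gene. Both Ctrl arrays stood apart in markers of other cells. On Ctrl 5FU, the 10 mature neutrophil markers spanned 10.08 to 12.29, against 3.49 to 5.88 over the other 3 arrays, with Camp at 12.29. There the medians of 7 granulocyte-monocyte, 8 B-lineage, 8 monocyte and macrophage and 5 erythroid markers were also the highest of the 4 arrays. On Ctrl Basal, the 8 skeletal muscle markers spanned 7.25 to 9.61, against 4.19 to 6.82 on AMKO 5FU, 4.61 to 7.28 on AMKO Basal and 4.59 to 7.73 on Ctrl 5FU. The highest was Acta1, skeletal actin, at 9.61. Other markers differed with 5FU in both genotypes. The median difference of 5 megakaryocyte markers was -1.04 in AMKO and -1.04 in Ctrl. In each genotype 3 were at least 2-fold lower, where 3.55% of kept genes were in AMKO and 4.46% in Ctrl. Of 4 T and NK markers kept, Nkg7, a gene of cytotoxic lymphocytes, was at 1.77 in AMKO and 1.86 in Ctrl. The median of these 4 was -0.215 in AMKO, with 1 above 0, and 1.11 in Ctrl, with 3 above 0. Cd3e, Cd4, Cd8a and Ncr1 of that list lay under the floor on all 4 arrays. The part of these marker signals in the values below was not tested.

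**Figure D1:**
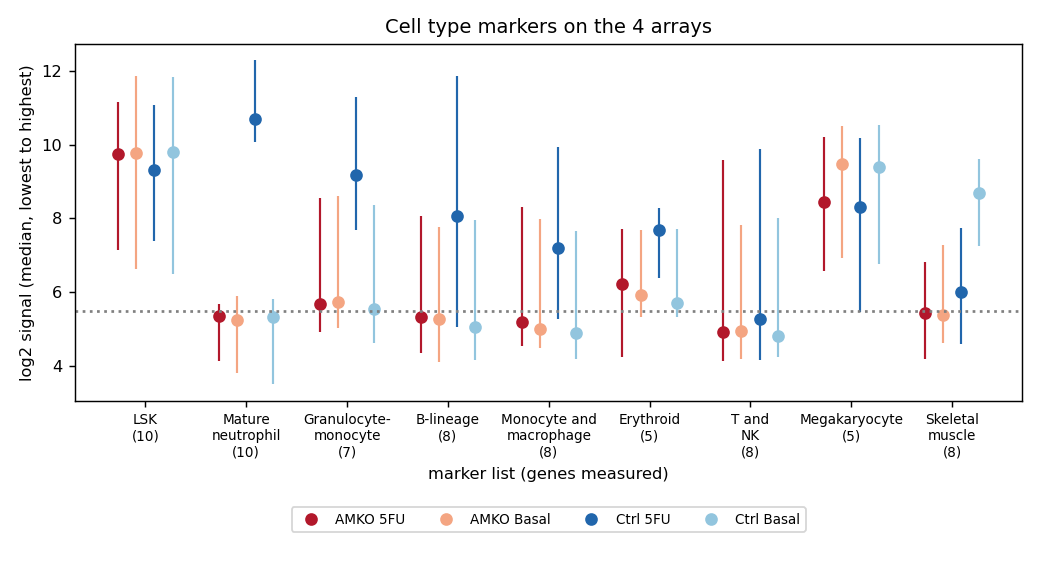
Cell type markers on the 4 arrays: the vertical axis is the log2 signal, points are medians over the measured genes of a list, lines run from the lowest to the highest gene, and the dotted line is the floor of 5.475. The 10 mature neutrophil markers lie between 10.08 and 12.29 on Ctrl 5FU, and the 8 skeletal muscle markers between 7.25 and 9.61 on Ctrl Basal.

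How antioxidant enzyme RNA in LSK cells at day 8 after 5FU compared with basal was read in each genotype. Hmox1, Prdx4 and Gpx1 were higher after 5FU by at least 1.5-fold in AMKO and in Ctrl, and Cat was higher by a smaller margin in each. Sod2 and Txnrd1 were higher in AMKO, with small differences in Ctrl. Sod1 and Gclm lay within 0.30 of their basal level in each genotype. Gclc was the 1 member with lower values after 5FU in both genotypes, as 33.7% of kept genes were. In bulk RNA, a change in the mix of sorted cells and a change in RNA per cell cannot be told apart.

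In AMKO, 8 of 9 members were above 0, where 52.3% of all kept genes were, and 2 were at least 2-fold higher, where 4.69% of kept genes were. In Ctrl, 7 of 9 were above 0, against 50.1% of kept genes, and 1 was at least 2-fold higher, against 5.02%. No member was at least 2-fold lower, where 3.55% of kept genes were in AMKO and 4.46% in Ctrl. The median over members was 0.51 in AMKO and 0.13 in Ctrl, beside 0.03 and 0.01 over all kept genes. Both genotypes were above 0 for 7 members, against 37% of kept genes, 3 were at least 1.5-fold higher in both, against 6.59%, and Hmox1 alone was at least 2-fold higher in both, against 1.96%. At least 1.5-fold higher were 4 members in AMKO, where 15.4% of kept genes were, and 3 in Ctrl, where 11.9% were. As deposited, the Ctrl median of 0.13 lies between the quartiles of all kept genes, -0.29 and 0.31. The AMKO median of 0.51 lies above the upper quartile of 0.37. Quantile normalization put the member medians at 0.32 in AMKO and 0.10 in Ctrl, and centring each array on its median at 0.62 and 0.17. Quartiles of kept genes were not taken under those scalings. With so few members, these counts describe the genes and carry no test.

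**Figure D2:**
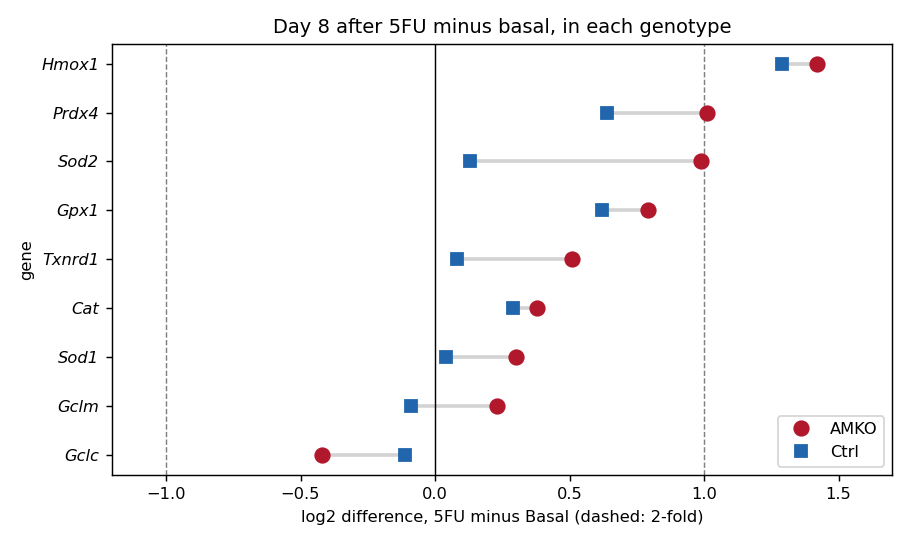
Log2 difference of day 8 after 5FU minus basal for the 9 measured members, in AMKO (circles) and Ctrl (squares), with dashed lines at 2-fold. Hmox1 lies beyond 2-fold in both genotypes (1.42 and 1.29), Prdx4 in AMKO (1.01), and Gclc lies below 0 in both (-0.42 and -0.11).

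**Figure D3:**
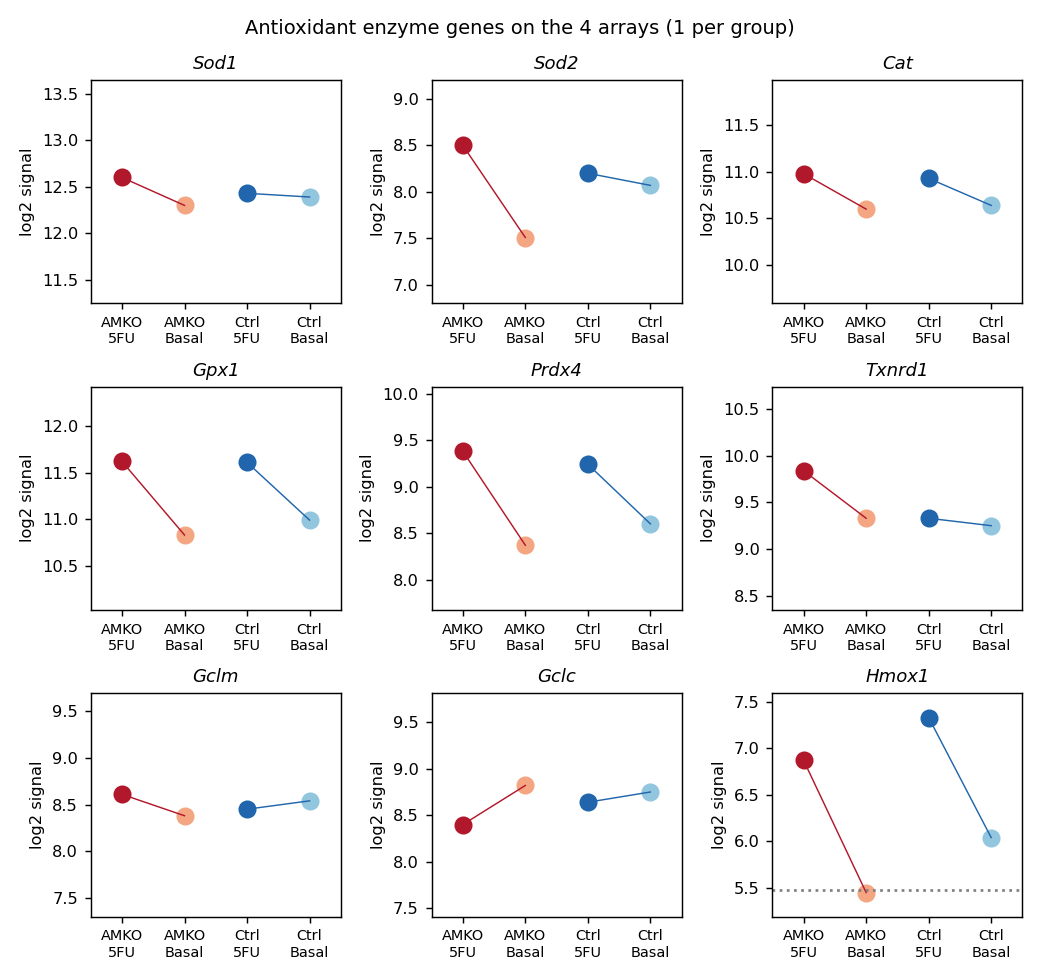
Log2 signal of each measured member on the 4 arrays, 1 array per group, with panels of equal height on the log2 axis and lines joining the 2 arrays of a genotype. Day 8 lies above basal in both genotypes for Hmox1, Prdx4, Gpx1 and Cat. It does so for Sod2, Txnrd1 and Sod1 as well, with Ctrl differences of 0.13, 0.08 and 0.04. The dotted line in the Hmox1 panel is the floor of 5.475, just above its AMKO Basal value of 5.45.

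Promoter sequence was set beside these values for the pair of members with the largest differences in both genotypes that had an entry, Prdx4 and Gpx1, and for Gclm and Sod1, which hold a match to the core of the antioxidant response element. The lines give the 250 bases before the annotated start in RefSeq (GRCm38.p6), read 5′ to 3′ along the gene, with motif matches in capitals.
Prdx4 (chrX:155338461-155338710, minus strand): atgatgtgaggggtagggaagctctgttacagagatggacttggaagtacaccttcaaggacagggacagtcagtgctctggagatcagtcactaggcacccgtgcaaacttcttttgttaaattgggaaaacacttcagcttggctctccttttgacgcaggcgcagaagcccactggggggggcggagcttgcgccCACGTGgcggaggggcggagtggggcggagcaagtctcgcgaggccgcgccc
Gpx1 (chr9:108338830-108339079, plus strand): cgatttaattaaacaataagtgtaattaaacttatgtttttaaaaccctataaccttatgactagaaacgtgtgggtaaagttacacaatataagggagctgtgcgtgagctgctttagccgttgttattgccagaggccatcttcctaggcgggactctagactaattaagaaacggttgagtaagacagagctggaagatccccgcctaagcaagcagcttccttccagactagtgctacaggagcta
Gclm (chr3:122245307-122245556, plus strand): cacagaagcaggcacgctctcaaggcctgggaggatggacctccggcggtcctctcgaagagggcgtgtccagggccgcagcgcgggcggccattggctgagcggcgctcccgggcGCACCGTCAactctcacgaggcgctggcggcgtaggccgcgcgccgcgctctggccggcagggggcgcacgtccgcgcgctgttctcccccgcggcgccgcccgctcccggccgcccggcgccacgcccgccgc
Sod1 (chr16:90220512-90220761, plus strand): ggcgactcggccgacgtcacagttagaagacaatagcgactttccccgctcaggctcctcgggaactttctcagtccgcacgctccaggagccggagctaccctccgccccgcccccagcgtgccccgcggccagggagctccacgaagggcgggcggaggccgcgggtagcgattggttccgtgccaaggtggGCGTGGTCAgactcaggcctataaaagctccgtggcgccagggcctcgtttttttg
Both strands were searched for TGACNNNGC (the core of the antioxidant response element, bound by NRF2 with small MAF proteins), TGANTCA (AP-1), GTAAACA (FOXO) and CACGTG (the E-box). Of 32851 windows of this length in the table, 10.2% held the first, 6.75% the second, 3.17% the third and 6.02% the fourth. With the base before the start counted as -1, Gclm held a response element core on the minus strand at -134 to -126 and Sod1 at -56 to -48. Prdx4 held an E-box at -52 to -47. No match to the 4 motifs was found in the Gpx1, Cat and Sod2 windows. Of 3 Txnrd1 windows, 1 held a response element core (-92 to -84), and the Prdx1 window held 1 core, which overlaps 1 of its 2 AP-1 matches. Entries were found for 8 of the 10 members. Gclc and Hmox1 had none. The windows also differed in composition: Gclm had 78.4% G and C with 41 CpG, and Gpx1 had 42% with 7, against medians of 52.4% and 6 over the table. These matches describe letters in a window and say nothing of binding.

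The superoxide dismutases were read first. Sod1, the copper and zinc enzyme of the cytosol, read 12.60 at day 8 and 12.30 at basal in AMKO, and 12.43 and 12.39 in Ctrl. Its 4 values lie within 0.30 of each other. Sod2, the manganese enzyme of mitochondria, read 8.50 at day 8 and 7.51 at basal in AMKO, and 8.20 and 8.07 in Ctrl. The AMKO Basal value is the low one, and the 2 day 8 values are the highest. Sod2 was 1.99-fold higher after 5FU in AMKO, just short of 2-fold, and 1.09-fold higher in Ctrl. In AMKO 4.69% of kept genes had a higher difference, and in Ctrl 38.2%. Ccs, which loads copper into SOD1, was higher by 0.18 in AMKO and 0.23 in Ctrl. Sod3, the secreted enzyme, was at -0.38 in AMKO and -0.69 in Ctrl and lay under the floor on all arrays but Ctrl Basal.

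The peroxide-reducing selenoenzyme Gpx1 was higher after 5FU by a similar amount in both genotypes. Gpx1, which uses glutathione, read 11.62 at day 8 and 10.83 at basal in AMKO, and 11.61 and 10.99 in Ctrl. Both day 8 arrays lie above both basal arrays, as they do for Sod1, Sod2, Cat, Prdx4 and Hmox1. Such a separation needs no size, and for Sod1 it is 0.04. How many kept genes separate in this way was not counted, and all that do are among the 37% above 0 in both genotypes. The Gpx1 difference was 1.73-fold in AMKO and 1.54-fold in Ctrl, and 8.7% and 10.9% of kept genes had a higher one. Cat, the peroxisomal enzyme that splits hydrogen peroxide without a cofactor thiol, read 10.98 and 10.60 in AMKO and 10.93 and 10.64 in Ctrl, at day 8 and basal. Its differences of 0.38 and 0.29 were exceeded by 24.5% and 26.1% of kept genes, so they are of a common size. Among other glutathione peroxidases, Gpx8, a membrane protein of the endoplasmic reticulum, was at least 2-fold lower in both genotypes (-1.23 and -1.59), with its Ctrl 5FU value (5.44) under the floor. Gpx7, a related enzyme of that compartment, was higher by 0.58 and 0.29. Of the 6 catalase and glutathione peroxidase genes kept, Gpx8 was the 1 past 2-fold. Of all kept genes, 3.55% were at least 2-fold lower in AMKO and 4.46% in Ctrl.

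The peroxiredoxins measured, which reduce peroxides through a reactive cysteine, all had values above 0 in both genotypes. Prdx4, the peroxiredoxin of the endoplasmic reticulum, read 9.38 at day 8 and 8.37 at basal in AMKO, and 9.24 and 8.60 in Ctrl. Prdx4 was above 0 in both genotypes, as 37% of kept genes were. The difference was 2.01-fold in AMKO and 1.56-fold in Ctrl. Quantile normalization brought the AMKO value under 2-fold, to 0.85 on the log2 scale. Prdx3, its mitochondrial relative, was higher by 0.88 and 0.92, and Prdx2, of the cytosol, by 0.66 and 0.35. Prdx5 and Prdx6 had no probe set of 1 gene. Txnrd1, the selenoenzyme that reduces cytosolic thioredoxin, read 9.84 at day 8 and 9.33 at basal in AMKO, and 9.33 and 9.25 in Ctrl. The AMKO 5FU array is the high one, at 1.42-fold over AMKO Basal, while the other 3 values lie within 0.08. The Ctrl difference of 0.08 turned to -0.03 after quantile normalization. Txn1, thioredoxin itself, was higher by 0.67 and 0.60. Txnip, which binds and inhibits thioredoxin, read 11.20 and 12.08 in AMKO and 11.22 and 12.29 in Ctrl, with differences of -0.88 and -1.07. Quantile normalization took the AMKO difference past 2-fold (-1.08). Of the 12 thioredoxin system genes kept, none was at least 2-fold higher in AMKO, where 4.69% of kept genes were, and 1 was in Ctrl, where 5.02% were. Msra, a methionine sulfoxide reductase, was higher by 0.38 and 0.40. The gene past 2-fold in Ctrl was Msrb1, another methionine sulfoxide reductase, which was higher by 0.26 in AMKO and 1.79 in Ctrl.

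The subunits of the enzyme that starts glutathione synthesis were not higher in both genotypes. Gclc, the catalytic subunit of the rate-limiting ligase, read 8.40 at day 8 and 8.82 at basal in AMKO, and 8.64 and 8.75 in Ctrl. Both day 8 values lie below both basal values, by 1.34-fold in AMKO and 1.08-fold in Ctrl. How many kept genes separate in this direction was not counted, and all that do are among the 33.7% below 0 in both genotypes. Gclm, the modifier subunit of the same enzyme, read 8.61 and 8.38 in AMKO and 8.45 and 8.54 in Ctrl, and its differences of 0.23 and -0.09 had opposite signs. The subunits of the ligase thus differed in sign in AMKO. Slc7a11, the cystine transporter that feeds the pathway, lay under the floor on all 4 arrays. Among the 13 genes kept of the glutathione synthesis and glutaredoxin list, 2 were at least 2-fold higher in AMKO, where 4.69% of kept genes were. They were Glrx3 (1.54 and 0.99) and Glrx5 (1.37 and 0.87), glutaredoxins that handle iron-sulfur clusters. Glrx, the cytosolic glutaredoxin, was higher by 0.88 and 0.67. Gsr, glutathione reductase, read 7.70 and 7.30 in AMKO and 9.09 and 7.38 in Ctrl, and its high value is on the array with high neutrophil markers.

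Hmox1 had the largest difference of the 9 members in each genotype. This inducible enzyme, which breaks heme into biliverdin, iron and carbon monoxide, read 6.87 at day 8 and 5.45 at basal in AMKO, and 7.33 and 6.04 in Ctrl. The difference was 2.68-fold in AMKO and 2.45-fold in Ctrl. Of kept genes, 1.49% and 3.11% had a higher difference. The AMKO Basal value lies just under the floor, so the size in AMKO is uncertain. Monocyte and macrophage markers, a cell type known for Hmox1, differed after 5FU by a median of 0.26 in AMKO and 2.42 in Ctrl over the 6 kept. Over all 8 measured, the markers ran from 4.52 to 8.31 on AMKO 5FU, 4.48 to 7.99 on AMKO Basal, 5.26 to 9.93 on Ctrl 5FU and 4.18 to 7.66 on Ctrl Basal. Their part in the Hmox1 values was not tested. Blvra, which reduces biliverdin to bilirubin, was higher by 0.72 and 0.75, and Blvrb by 0.11 in AMKO with -0.09 in Ctrl. Fth1, the ferritin heavy chain, was at 0.35 and -0.05. Ireb2, an iron-sensing regulator of translation, was higher by 0.54 and 0.40, and Ncoa4, the ferritin receptor of autophagy, by 0.34 and 0.29. Slc40a1, the iron exporter, was at 0.00 in AMKO and 2.18 in Ctrl, and lay under the floor on all arrays but Ctrl 5FU.

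Over both genotypes, the 5FU difference was tested with limma on all 14061 kept genes, with genotype and treatment as terms. That fit leaves 1 residual degree of freedom, and its error is the difference between the responses of the genotypes. No member and no gene passed an adjusted p of 0.05 (0% of genes tested), while 4 members and 27.8% of genes had an unadjusted p under 0.05. The lowest adjusted p of any gene was 0.0697. The limma estimates were 1.36 ± 0.16 for Hmox1 (SE, adjusted p = 0.072), 0.70 ± 0.10 for Gpx1 (0.0732) and 0.82 ± 0.15 for Prdx4 (0.0878). Cat followed with 0.34 ± 0.10 (limma adjusted p = 0.15). For Sod2, Txnrd1, Gclc, Sod1 and Gclm, limma's adjusted p lay between 0.265 and 0.799. Robust estimation in limma brought 3 members past the threshold, namely Hmox1, Prdx4 and Gpx1, as it did for 1315 genes in all. Without the Ctrl 5FU array, limma estimates with treatment alone were 1.12 for Hmox1, 0.90 for Prdx4 and 0.71 for Gpx1, and none passed. The estimate for Sod2 was 0.56, with 0.28 without AMKO Basal and 0.84 without Ctrl Basal, and that for Txnrd1 was 0.30, with 0.04 without AMKO 5FU and 0.55 without Ctrl 5FU.

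AMKO was set against Ctrl at each time, from the same 4 arrays. At day 8, Txnrd1 (0.51) and Sod2 (0.30) were the highest members in AMKO, and Hmox1 (-0.46) and Gclc (-0.24) the lowest. At basal, Hmox1 (-0.59, 1.51-fold lower in AMKO) and Sod2 (-0.56, 1.47-fold lower) stood at the low end, and the other 7 members lay between -0.23 and 0.08. At day 8, 7 members were above 0, where 59% of kept genes were, and at basal 7 were below 0, where 49% were. Hmox1 was the 1 member at least 1.5-fold lower at basal, as 3.63% of kept genes were. Its AMKO Basal value (5.45) lies under the floor, so this size is uncertain. No member was at least 2-fold different at either time, where 3.37% of kept genes were at day 8 and 0.925% at basal. The Ctrl array at basal is the one with high skeletal muscle markers, which differed by a median of -3.10 between AMKO and Ctrl over 8 genes, and the part of that signal in the Sod2 and Hmox1 values was not tested. The small basal differences of Sod1 (-0.09) and Cat (-0.04) turned to 0.12 and 0.06 after quantile normalization, and that of Gclc (0.07) to -0.01 after centring each array on its median. At day 8 the Ctrl array is the one with high neutrophil markers, which differed by a median of -5.65 between AMKO and Ctrl. Gpx1 (0.01) and Cat (0.05) had nearly the same values in both genotypes there. The medians over members were 0.14 at day 8 and -0.16 at basal, beside 0.06 and 0.00 over all kept genes.

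**Figure D4:**
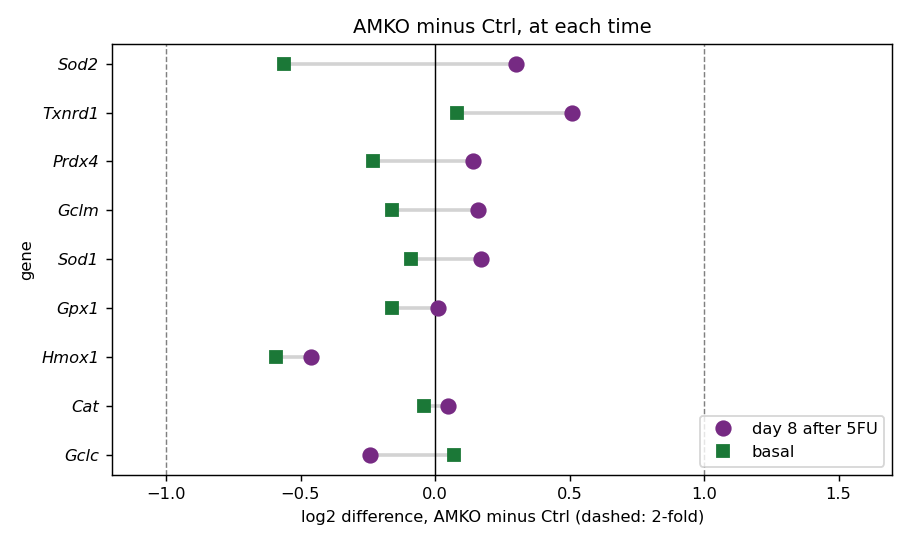
Log2 difference of AMKO minus Ctrl for the 9 measured members at day 8 after 5FU (circles) and at basal (squares), with dashed lines at 2-fold and genes ordered by the gap between the times. Sod2 moves the most between the times (0.30 and -0.56), Hmox1 lies below 0 at both (-0.46 and -0.59), and no member reaches 2-fold.

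Whether 5FU differences depended on genotype has no test here. The 5FU difference was larger in AMKO than in Ctrl for 8 of 9 members, where 55.2% of kept genes had a value above 0. The gap was 0.86 for Sod2, which 3.78% of kept genes exceeded, 0.43 for Txnrd1 and 0.37 for Prdx4. Gclc had the 1 gap below 0 (-0.31), since its lower value after 5FU was more marked in AMKO. Sod2 was the 1 member with a gap of at least 1.5-fold, as were 9.93% of kept genes. No gap reached 2-fold, which 5.5% of kept genes did. The median gap over members was 0.26, beside 0.05 over kept genes. Centring each array on its median gave 0.33, beside 0.12 over kept genes, and quantile normalization gave 0.22, beside 0.025. For Cat the gap of 0.09 turned to -0.03 after quantile normalization. For Sod2, AMKO minus Ctrl was 0.30 at day 8 and -0.56 at basal, and AMKO Basal held its lowest value.

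Beyond the members, 133 further genes of redox pathways were listed, of which 117 passed the floor. In AMKO, 11 of them (9.4%) had a value at least 2-fold above basal and 6 (5.13%) at least 2-fold below, where 4.69% and 3.55% of kept genes had. The Ctrl counts were 14 (12%) and 8 (6.84%), where the shares of kept genes were 5.02% and 4.46%. In both genotypes 6 were higher and 4 lower, where 1.96% and 1.98% of kept genes were. Regulators had small and larger values. Nfe2l2, encoding NRF2, was at 0.10 in AMKO and -0.11 in Ctrl, Keap1 at -0.06 and -0.11, and Bach1, a repressor of Hmox1, at -0.14 and 0.06. Signs of this size turn with the scaling: the AMKO value of Nfe2l2 became -0.01 after quantile normalization, and that of Keap1 0.05 after centring. The FOXO factors Foxo3 (-0.47 and -0.17) and Foxo1 (-0.26 and -0.28) had values below 0 in both genotypes, as 33.7% of kept genes did, and Foxo4 was at -0.13 in AMKO and 0.08 in Ctrl. Of their list, 0 of 9 genes kept were at least 2-fold higher in either genotype, where 4.69% of kept genes were in AMKO and 5.02% in Ctrl. Ppargc1a, a coactivator of mitochondrial genes, was at -1.04 in AMKO and -0.33 in Ctrl. Its AMKO 5FU value (5.03) lay under the floor, and its AMKO difference was -0.97 with quantile normalization and -0.93 with centring. Park7, a redox-sensing protein, was at 0.35 and 0.26. Among the 15 genes kept of the NRF2 list, Ephx1, an epoxide hydrolase, was the 1 at least 2-fold different in both genotypes (-1.55 and -1.22). Of all kept genes, 1.98% were at least 2-fold lower in both. The small MAF protein gene Mafg followed (-0.89 and -0.48). Akr1a1, an aldehyde reductase, was at 0.31 and 0.43, and Abcc1, a glutathione conjugate exporter, at -0.19 and -0.26.

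Of 15 NADPH supply genes kept, 4 were at least 2-fold higher in AMKO and 4 in Ctrl, where 4.69% and 5.02% of kept genes were. In both genotypes 3 were so, where 1.96% of kept genes were: Me2, mitochondrial malic enzyme (1.49 and 1.29), Taldo1, transaldolase of the pentose phosphate pathway (1.26 and 1.48), and Mthfd2, a mitochondrial folate enzyme (1.14 and 1.59). The Ctrl Basal value of Mthfd2 (5.23) lay under the floor. Mthfd1, its cytosolic relative, was higher by 1.12 and 0.87, with 0.94 in AMKO under quantile normalization. Me1, cytosolic malic enzyme, was at 0.42 in AMKO and -1.47 in Ctrl, with its Ctrl 5FU value (5.07) under the floor. G6pdx and Tkt had no probe set of 1 gene. Of 12 glutathione S-transferase genes kept, Gstm2 was at least 2-fold lower in both genotypes (-1.92 and -2.65), where 1.98% of kept genes were. Gstt1 was at -0.90 and -1.42 and Gstm1 at -0.37 and -0.63. Probe sets of near-identical transferases may cross-hybridise, so these values are uncertain. Microsomal transferases had other values, with Mgst3 at 0.71 and 0.86, Mgst1 at -0.06 in AMKO and 1.48 in Ctrl, and Mgst2 at -0.45 in AMKO and 0.99 in Ctrl. Metallothioneins, small proteins that bind zinc and copper, had 3 genes kept, all with values below 0 in both genotypes. Mt2 read 4.92 and 7.13 in AMKO and 5.20 and 6.45 in Ctrl, and Mt1 read 7.31 and 8.86 in AMKO and 7.51 and 8.18 in Ctrl. Both genes lay lower at day 8 than at basal in both genotypes, with the Mt2 day 8 values under the floor. Mt3 was at -0.70 and -0.38 and lay under the floor on all arrays but AMKO Basal. Mtf1, the transcription factor that drives metallothionein genes, was at -0.37 in AMKO and 0.01 in Ctrl.

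Gpx1 and Txnrd1 are selenoproteins, and a list of 15 genes held factors of selenoprotein synthesis together with other selenoproteins. At least 2-fold higher were 3 of them in AMKO, where 4.69% of kept genes were, and 2 in Ctrl, where 5.02% were. Of the synthesis factors, Sephs2, which makes the selenium donor, was the 1 past 2-fold, and it was so in both genotypes (1.32 and 1.49). The others past 2-fold were selenoproteins, namely Selenot (1.09) and Selenoh (1.02) in AMKO and Selenos (1.45) in Ctrl. Selenot was at 0.64 in Ctrl, and its AMKO value was 0.91 with quantile normalization. Selenom was at -0.15 in AMKO and -1.01 in Ctrl. Among synthesis factors short of 2-fold, Eefsec, the elongation factor for selenocysteine, was at 0.70 and 0.63. NADPH oxidase subunits, which produce superoxide in phagocytes, had a median of 0.24 in AMKO and 1.22 in Ctrl over the 7 kept. Cyba, the small membrane subunit, was higher by 1.08 and 1.22, and Ncf4, a cytosolic subunit, by 1.25 and 3.40. Quantile normalization brought the AMKO value of Cyba under 2-fold, to 0.91. Cybb, the catalytic subunit, read 5.00 and 4.92 in AMKO and 10.14 and 4.88 in Ctrl, so it lay above the floor on Ctrl 5FU alone, the array with high neutrophil markers. Ncf1 (0.52 and 2.39) showed the larger value in Ctrl as well, and Rac1 was at 0.24 and 0.30. At day 8, Cybb (-5.14), Slc40a1 (-2.10), Ncf1 (-1.77), Mgst2 (-1.46), Gsr (-1.39), Ncf4 (-1.35) and Msrb1 (-1.10) were at least 2-fold lower in AMKO than in Ctrl, as were 8 of the 117 genes in all and 2.63% of kept genes. The eighth was Ppargc1a (-1.01), whose AMKO 5FU value is the one under the floor, and Me1 (1.19) was the 1 gene at least 2-fold higher, where 0.74% of kept genes were. None of the 117 genes was at least 2-fold different between genotypes at basal, where only 0.925% of kept genes were.

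**Figure D5:**
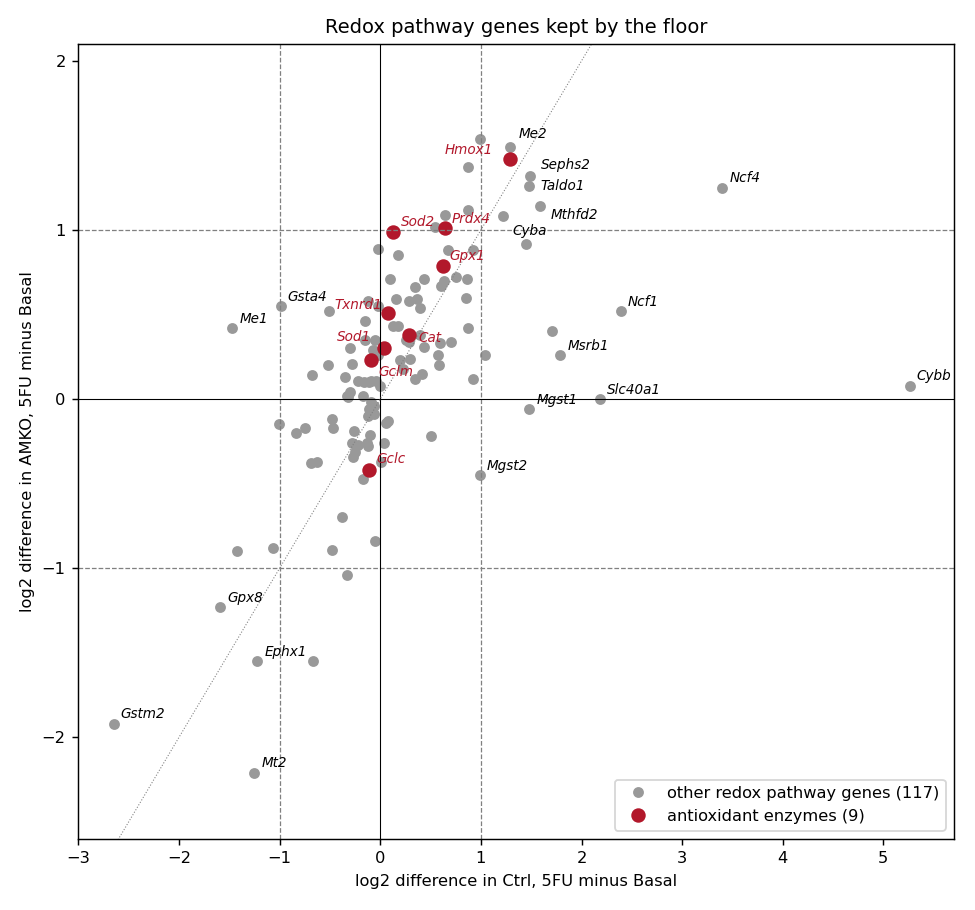
Log2 difference of day 8 after 5FU minus basal in AMKO (vertical axis) against Ctrl (horizontal axis) for 9 antioxidant enzymes (red) and 117 other redox pathway genes (grey) kept by the floor, with dashed lines at 2-fold and a dotted line of equal values. Named grey genes are past 2-fold in both genotypes or differ by at least 1.4 between them, and Cybb lies at 0.08 in AMKO and 5.26 in Ctrl.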

How the data were processed

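RNA of sorted LSK cells was measured on 4 Affymetrix arrays, 1 per group, labelled with biotin per the labels' protocols. The authors deposited 1 value per probe set and array, read here as log2 because the 34472 values of an array had 2 decimals and lay between 1.99 and 13.43. How the signals were summarised and normalized is not stated in any source used, and no scaling was added to the deposited values. Of the probe sets, 23521 named 1 gene, 1814 several and 9137 none. For 23328 probe sets the current symbol came from RefSeq (GRCm38.p6) by Entrez identifier. For 1082 genes with several probe sets, that of the highest mean was used, and each measured member had 1.

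Differences of 1 array from 1 array have no test. The additive fit was made with limma version 3.58.1 under R version 4.3.3 (moderated by eBayes, trend on mean signal, prior of 2.62 degrees of freedom, Benjamini-Hochberg adjustment over 14061 genes). It was also run on simulated data with added changes larger than any member's estimate and equal in both genotypes. That run does not test the fit at the sizes of the members. Alternatives were quantile normalization, median centring, averaged probe sets, omitting the floor or raising it to the 75th percentile, a 1.5-fold size, robust or untrended limma, and left-out arrays. Besides the members, the rule for named genes took from each list the genes at least 2-fold different in both genotypes, then the largest of 1 sign up to 4, the largest genotype difference at each time if at least 2-fold, and 5 fixed regulators. Blvrb, Fth1, Slc7a11, Foxo4, Gsta4, Mgst1, Mtf1, Nqo1, Selenoh and Selenom lie outside this rule and were chosen after their values were seen. The members and lists were chosen with earlier results of these data known.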

Additional observations from a re-analysis of the deposited data

Results flagged for a closer look

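Of the 9 measured members, 1 had 5FU differences of opposite sign in the 2 genotypes. Of the 117 other redox pathway genes kept, 32 did. Of all kept genes, 37% were above 0 in both genotypes and 33.7% below 0 in both. The rest had opposite signs or a difference of 0, so opposite signs are common among kept genes. Only that member and genes taken by the rule for named genes are listed below, so some larger gaps fall outside the list. Gsta4 was at 0.55 in AMKO and -0.99 in Ctrl (a gap of 1.54), and Mgst1 at -0.06 and 1.48 (-1.54). Nqo1 was at 0.52 and -0.51 (1.03), with its Ctrl 5FU value of 5.35 under the floor. These differences between genotypes were not tested, since each rests on 1 array per group. Gclm was at 0.23 in AMKO and -0.09 in Ctrl, a gap of 0.32. Nfe2l2 was at 0.10 and -0.11, a gap of 0.21. Bach1 was at -0.14 and 0.06, a gap of -0.20. Me1 was at 0.42 and -1.47, a gap of 1.89, with its Ctrl 5FU value under the floor. Mgst2 was at -0.45 and 0.99, a gap of -1.44, and the Ctrl 5FU array is the one with high neutrophil markers.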

How the results depend on the processing

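Every measured member but Txnrd1 kept the sign of its 5FU difference in each genotype under each scaling tried. The number of members at least 2-fold higher in AMKO was 2, and 1 after quantile normalization. At a 1.5-fold size, 4 members were higher in AMKO and 3 in Ctrl, 1 was lower in AMKO than in Ctrl at basal, and 1 gap between the 5FU differences was higher. Centring each array on its median moved all AMKO differences after 5FU by 0.11, which took Sod2 to 1.10, and raised the share of higher genes among those at least 2-fold different in AMKO to 71.5%, against 56.9% as deposited and 50.1% after quantile normalization. Signs turned for Txnrd1 after 5FU in Ctrl (-0.03), for Sod1 (0.12) and Cat (0.06) at basal and for the Cat gap (-0.03) with quantile normalization, and for Gclc at basal (-0.01) with centring. The cause was not tested.

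Limma called 0 genes, and 947 with quantile normalization, 161 with centring, 1293 with the floor at the 75th percentile and 1315 with robust estimation. Members called were 2 with quantile normalization (Hmox1 and Gpx1), 2 with the higher floor (Gpx1 and Prdx4) and 3 with robust estimation. Leaving out an array gave 0 to 461 genes, with 461 without AMKO 5FU, and 0 members. In these fits the lone array is assumed to vary like the pair. The limma value for Gclm was 0.07, but -0.05 with quantile normalization, and it ran from -0.01 (without AMKO 5FU or AMKO Basal) to 0.15 over left-out arrays. No paired analysis was possible because each group holds 1 array and the labels give no replicate numbers.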
